A study of Mus musculus with 16 samples.

Results

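RNA of GFP-labelled and mCherry-labelled 4T07 cells from the same 3 tumours was compared, 6 of the 16 libraries of the series. 4T07 is a mouse mammary carcinoma line. The tumours grew from 250000 cells, a mix of equal parts of GFP-transduced and mCherry-transduced cells, in the mammary fat pad of hybrid females of Balb/cJ and C57BL/6J. On day 15 of tumour growth the mice received 7000000 Jedi T cells through the tail vein. Jedi T cells carry a receptor for a peptide of GFP, so that GFP cells are their target and mCherry cells in the same tumour are not, and the cells used here lacked PD1. Tumours were taken 7 days later, digested and sorted after staining with DAPI and for CD45. The GFP libraries are therefore of GFP cells that were still present after the T cell injection, and the mCherry libraries of untargeted neighbours. Members were chosen from the labels alone (injection day 15, colour, and the tumour number that each GFP library shares with 1 mCherry library). The other libraries are 6 from tumours injected on day 7 and 4 of mCherry cells from control tumours, which had neither GFP cells nor Jedi T cells and serve here for levels outside T cell attack. No library holds GFP cells of a tumour without Jedi T cells, so the reporter or its transduced population and the T cell attack cannot be told apart in any difference below. Each pair is 1 tumour, and n counts tumours.

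T cells release interferon gamma at their targets, and tumour cells that sense it raise MHC class I and the machinery that loads it, interferon-induced GTPases and the PD1 ligand PD-L1. Cells that leave the division cycle lower a shared set of replication and mitosis genes, whose promoters are bound by E2F factors and by the DREAM and B-MYB complexes at E2F, CHR and CCAAT boxes. Many interferon-stimulated genes are read through the interferon-stimulated response element (ISRE), and sterol synthesis genes through sterol regulatory elements (SRE) bound by SREBP2.

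The promoters of 5 genes were chosen because they hold these motifs. Each is given 5′ to 3′ on the gene's strand, from 250 bases before to 50 bases after the RefSeq start in GRCm38.p6. Capitals mark the motif named for that gene, on either strand. Igtp (chr11:58199306-58199605, + strand) and Irgm2 (chr11:58214727-58215026, + strand), which encode interferon-induced GTPases and lie close to each other, hold the ISRE letters, GAAA, any 2 bases and GAAA. Aurka (chr2:172370521-172370820, − strand), a mitotic kinase gene, holds CCAAT and the CHR letters TTTGAA. Mcm3 (chr1:20820263-20820562, − strand), of the replicative helicase, holds the E2F letters TTTNNCGC. Hmgcs1 (chr13:119690101-119690400, + strand), which makes the HMG-CoA used for sterols, holds the SRE letters TCACNCCAC. Of the listed sterol genes with a promoter sequence, only Hmgcs1 did.
Igtp: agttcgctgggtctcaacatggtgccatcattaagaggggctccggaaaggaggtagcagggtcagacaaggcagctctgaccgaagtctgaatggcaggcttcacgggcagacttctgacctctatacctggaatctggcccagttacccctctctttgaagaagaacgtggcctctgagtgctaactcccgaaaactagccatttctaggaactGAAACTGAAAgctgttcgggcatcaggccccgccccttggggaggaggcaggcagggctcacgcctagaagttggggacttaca
Irgm2: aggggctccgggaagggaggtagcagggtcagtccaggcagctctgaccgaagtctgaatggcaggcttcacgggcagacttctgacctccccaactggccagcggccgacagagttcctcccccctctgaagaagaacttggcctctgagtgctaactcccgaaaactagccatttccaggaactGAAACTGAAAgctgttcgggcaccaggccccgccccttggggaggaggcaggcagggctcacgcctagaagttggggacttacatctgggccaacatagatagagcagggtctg
Aurka: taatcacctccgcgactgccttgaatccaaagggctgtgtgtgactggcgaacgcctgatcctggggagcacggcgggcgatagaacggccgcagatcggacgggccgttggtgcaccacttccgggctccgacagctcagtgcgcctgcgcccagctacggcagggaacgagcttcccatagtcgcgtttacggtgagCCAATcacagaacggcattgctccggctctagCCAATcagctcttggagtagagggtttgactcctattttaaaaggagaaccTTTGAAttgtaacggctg
Mcm3: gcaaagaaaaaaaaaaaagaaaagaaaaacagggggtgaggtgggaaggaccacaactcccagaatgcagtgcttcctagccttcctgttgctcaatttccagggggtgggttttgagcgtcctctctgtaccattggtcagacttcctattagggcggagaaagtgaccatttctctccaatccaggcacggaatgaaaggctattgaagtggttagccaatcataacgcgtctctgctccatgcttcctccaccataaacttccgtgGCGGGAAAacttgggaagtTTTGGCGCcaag
Hmgcs1: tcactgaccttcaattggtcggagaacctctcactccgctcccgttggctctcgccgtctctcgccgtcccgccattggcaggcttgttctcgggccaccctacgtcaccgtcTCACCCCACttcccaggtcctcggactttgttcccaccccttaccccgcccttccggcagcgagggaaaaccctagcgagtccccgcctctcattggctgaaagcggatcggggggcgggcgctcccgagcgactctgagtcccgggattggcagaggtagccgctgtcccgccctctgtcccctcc
A match is a run of letters and not a bound site. Of the 27025 genes in the promoter table, 3.49% held the ISRE letters, 18.1% the CHR letters, 37.9% CCAAT, 5.27% the E2F letters and 1.22% the SRE letters. Among the 10027 of the genes tested that had a promoter sequence, the shares were 3.19%, 11.8%, 38.9%, 8.6% and 0.997% in the same order.

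Libraries held 21183324 to 24880582 counts in the GFP group, 21832170 to 22248031 in the mCherry group and 24367417 to 32808354 in the controls, so that sequencing depth differed little between the colours. Mitochondrially encoded genes took 1.19% to 1.54% of the counts in the 6 libraries. The labelled cell type was checked by its markers. Vim, an intermediate filament gene of mesenchymal cells, stood at 3963, 3127 and 3439 CPM (counts per 1000000, scaled by TMM factors) in the GFP libraries of tumours 1 to 3 and at 3351, 3456 and 3299 CPM in the mCherry libraries. The simple epithelial keratin gene Krt8 stood at 398, 329 and 388 against 644, 555 and 438 CPM, and Ptprc, which encodes CD45, at 0.586, 0.564 and 0.658 against 1.46, 0.9603 and 1.102 CPM. T cell RNA was close to absent: 15 T and NK cell markers summed to 0.564 to 0.904 CPM in GFP and 0.457 to 0.885 CPM in mCherry libraries, Gzma, Ifng and Pdcd1 had no count in any of the 6, and none of the 15 passed the filter on low counts.

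Of 14260 genes tested, 2782 (19.5%) differed between GFP and mCherry cells at an adjusted p under 0.05 (edgeR quasi-likelihood test with tumour as a block), and these are the genes called below. Of the 2782 genes, 1275 were higher in GFP cells (8.94% of those tested) and 1507 lower (10.6%). Counts of called list members below are to be read beside these shares. Most differences were small: the median size among called genes was 0.57 on the log2 scale, 216 rose and 376 fell over 2-fold, and 31 rose and 60 fell over 4-fold. The median log2 fold change (GFP over mCherry) of all genes tested was 0.0065. The sign was the same in all 3 tumours for 99.5% of called genes, against 55.0% of all genes tested. The libraries of the 2 colours did not overlap for 36.4% of all genes tested (18% higher and 18.4% lower in GFP cells). The control tumours give a further reference: for 773 of the 1275 higher genes all 3 GFP libraries lay above all 4 controls, and for 953 of the 1507 lower genes all 3 lay below them. The number of calls leant on tumour 3, without which 1736 genes were called (764 higher and 972 lower), against 2546 without tumour 1 and 2520 without tumour 2.

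**Figure D1:**
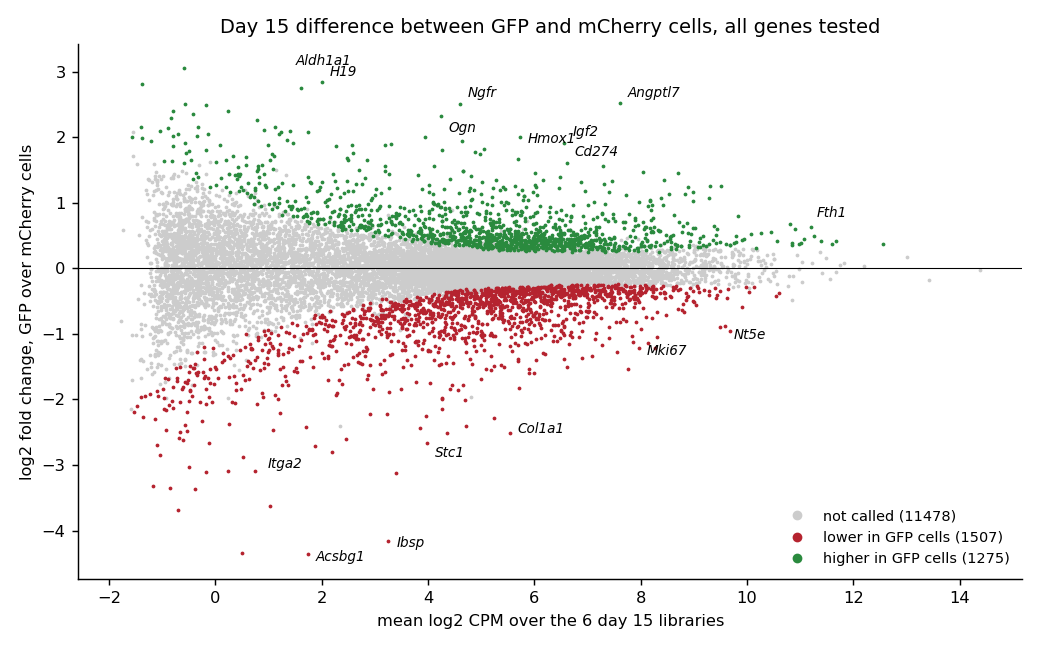
Log2 fold change of GFP over mCherry cells (y axis) against the mean log2 CPM over the 6 libraries (x axis) for the 14260 genes tested. Green points are the 1275 genes called higher and red points the 1507 called lower. The largest falls, Acsbg1 (−4.37) and Ibsp (−4.16), exceed in size the largest rises, H19 (2.84) and Aldh1a1 (2.75) (called genes whose mean log2 CPM reached 1).

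Interferon-induced GTPase genes were raised in every tumour. Of 17 interferon-induced GTPases, which attack pathogen-containing vacuoles, 16 rose, with a median log2 fold change of 1.17 (per-tumour medians 1.04, 0.98 and 1.31) beside 0.0065 over all genes. Igtp stood at 327, 569.7 and 907 CPM in the GFP libraries of tumours 1 to 3 and at 129.7, 251 and 309.7 CPM in the mCherry libraries. Tumour 3 was highest and tumour 1 lowest in both colours, and the lowest GFP library exceeded the highest mCherry library by little. Within tumours Igtp was higher (log2 fold change 1.35, SE 0.0936, adjusted p = 2.98e-05). Gbp4 (385, 679.6 and 1248 against 165, 269 and 354 CPM) showed the same order of tumours, with 1.45. The control tumours spanned 131 to 669 CPM for Igtp and 123 to 817 CPM for Gbp4, and the highest GFP library of each gene, that of tumour 3, lay above all controls. The only listed GTPase not called was Gvin1 (0.97, adjusted p = 0.105). GTPases of this family are close paralogs and lie in clusters, and the sources used here do not say how reads shared between them were counted, so the values of single members are uncertain.

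Antiviral effectors moved less evenly. Of 29, 16 rose and none fell, with a median of 0.48, but tumour 2 had a median of 0.067 against 0.86 and 0.59 in tumours 1 and 3. Bst2, the tether that holds budding virus, stood at 401, 504 and 564 against 151, 307 and 259 CPM, higher in each GFP library than in any mCherry library (log2 fold change 1.07, SE 0.1202, adjusted p = 3.18e-04). Ifit3 (1.14), Oas2 (1.14) and Samhd1 (0.77), effectors against viral RNA or reverse transcription, rose as well. The classical targets Mx1 (−0.42, adjusted p = 0.319), Isg15 (0.27, adjusted p = 0.285) and Rsad2 (0.37, adjusted p = 0.311) did not pass the test. Of 19 interferon signalling regulators, 6 rose and 2 fell. The rises included the transcription factors Stat2 (1.28), Irf7 (0.86) and Irf9 (0.72), the feedback inhibitor Socs1 (0.84) and the kinase Tyk2 (0.38). The falls were in the receptor chains Ifngr2 (−0.34) and Ifnar1 (−0.29), both on chromosome 16, and neither was called once each chromosome was centred in each library. Stat2 stood at 198, 249.7 and 311 CPM in GFP and 70.1, 135 and 111 CPM in mCherry libraries, with no overlap, and controls at 59.9 to 193 CPM.

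Antigen presentation genes were higher too. Of 11 MHC class I genes 10 rose, with a median of 0.41 and per-tumour medians of 0.35 to 0.43. H2-T23, a non-classical class I heavy chain, stood at 588, 762 and 853 CPM in GFP and 254, 422 and 418 CPM in mCherry libraries, with no overlap (log2 fold change 1.02, SE 0.0944, adjusted p = 1.36e-04). Nlrc5, the transactivator of class I genes, stood at 192, 251 and 282 against 122, 149 and 133 CPM and again did not overlap (log2 fold change 0.83, SE 0.09504, adjusted p = 3.59e-04). The light chain gene B2m and the classical heavy chains H2-D1 and H2-K1 rose by less (0.45, 0.41 and 0.37), and these calls ended without tumour 3. Of 13 peptide loading and immunoproteasome genes 4 rose: the peptide transporter subunits Tap1 (0.63) and Tap2 (0.36), the editor Tapbpl (0.64) and the proteasome subunit Psmb8 (0.30).

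MHC class II genes, which most epithelial tumour cells hold low unless interferon gamma induces the transactivator Ciita, rose most in tumour 3. Of 9 tested, 8 rose, with a median of 1.02 overall and 0.66, 0.78 and 1.74 in tumours 1 to 3. Cd74, the invariant chain, stood at 277, 595 and 1020.1 CPM in GFP and 159, 307 and 319 CPM in mCherry libraries of tumours 1 to 3 (log2 fold change 1.14, SE 0.146, adjusted p = 6.57e-04). Tumour 3 was highest in both colours, and the GFP library of tumour 1 lay below the mCherry libraries of tumours 2 and 3. H2-Aa followed the same order, at 60.9, 139 and 283 against 35.4, 72.7 and 73.9 CPM. Macrophage and dendritic cells also express class II genes, and their part in these values was not tested. The 17 macrophage and monocyte markers summed to 59.3 to 78.9 CPM in GFP and 96.1 to 123 CPM in mCherry libraries. Cd14 made up most of each sum, at 35.8, 51.3 and 45.3 CPM in GFP and 75.7, 84.5 and 68.7 CPM in mCherry libraries. The 8 dendritic cell markers summed to 4.27 to 6.42 CPM in GFP and 6.06 to 7.03 CPM in mCherry libraries.

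These interferon and MHC calls rest on the comparison within tumours. Without the tumour block, 11 of the 17 GTPases, 7 of the 29 antiviral genes, 5 of the 11 class I genes and none of the class II genes were called. In a joint fit that also took its spread from the 4 control tumours, none of the GTPases, antiviral or class II genes were called, and 3 of the class I genes were. Control tumours varied among themselves for these genes: the summed GTPase level was 1440 to 6291 CPM over the controls, 3661 to 8609 CPM in GFP and 1785 to 3335 CPM in day 15 mCherry libraries.

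**Figure D2:**
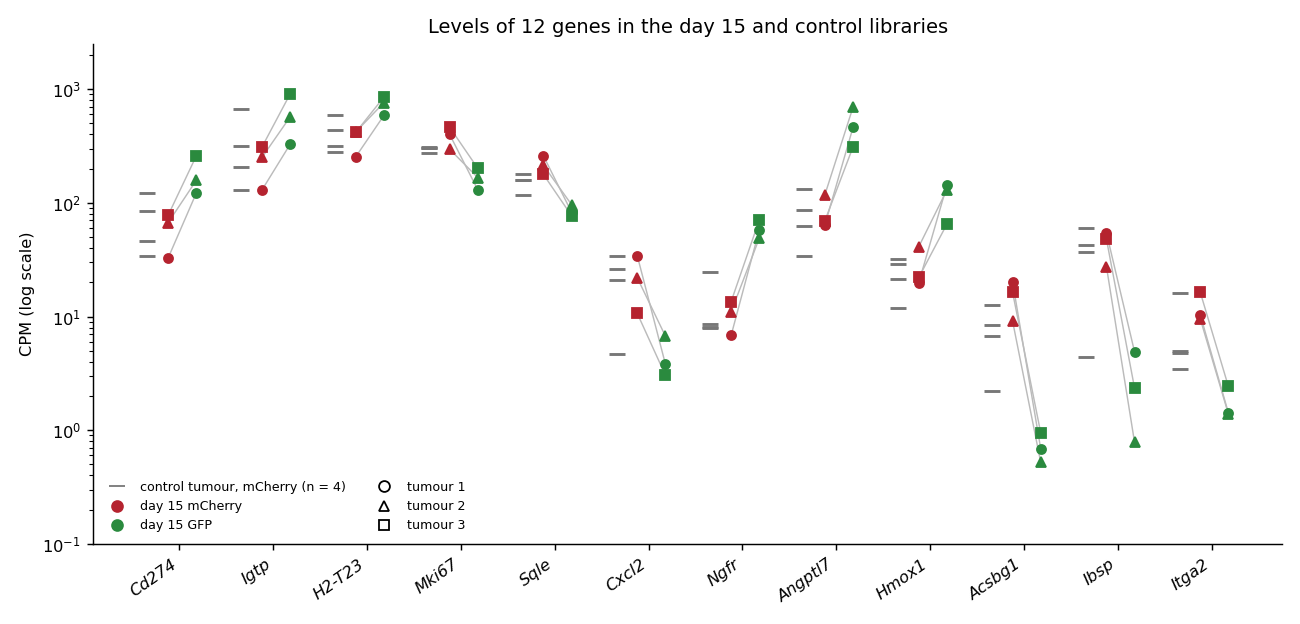
CPM on a log axis for 12 genes, with 1 marker shape per tumour, mCherry cells in red, GFP cells in green, and grey lines joining the cells of 1 tumour. Grey dashes are the 4 control tumours. The direction was the same in all 3 tumours for each gene, while the control tumours spread widely for Cd274 and Igtp.

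Among 14 immune inhibitory ligands and enzymes, 3 rose and 3 fell. Cd274, which encodes PD-L1 (chr19:29367455-29388095, + strand, GRCm38), stood at 122, 158 and 259 CPM in the GFP and 32.7, 66.9 and 77.7 CPM in the mCherry libraries, with no overlap. It was 3.06-fold higher within tumours (log2 fold change 1.61, SE 0.119, adjusted p = 4.10e-05), and controls spanned 34.03 to 121 CPM. Ptgs2, which makes prostaglandin H2, rose (0.80), as did Vsir, an inhibitory B7 family member (0.45). The ectonucleotidase genes Entpd1 and Nt5e, whose products take part in turning extracellular ATP into adenosine, fell by 2.19 and 0.87 on the log2 scale. Nt5e stood at 568, 472 and 696 CPM in GFP and 1083, 969 and 1077 CPM in mCherry libraries. Cd276, another B7 family member, fell by 0.84.

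Complement genes formed a further raised group, with 6 of 11 higher and none lower (median 0.69). They encode C1 proteases, C2 and C4 of the classical pathway, and factor B of the alternative pathway. C1s1, the C1s protease, stood at 212, 336 and 269 CPM in GFP and 71.3, 117 and 89.2 CPM in mCherry libraries (log2 fold change 1.55, SE 0.0777, adjusted p = 5.77e-06), and C4b at 861, 1367 and 1215 against 332, 658 and 472 CPM (1.26). C2 (1.96), C4a (1.17), C1ra (0.82) and Cfb (0.69) also rose, whereas the central component C3 (−0.097, adjusted p = 0.458) did not pass the test. The C1q chain genes, listed among macrophage markers, fell (C1qa −1.53, C1qb −1.84 and C1qc −1.42). C4a and C4b are near-identical copies, so that the split of reads between them is uncertain. In the joint fit with the controls 1 of the 11 was called.

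Chemokine genes went the other way. All 5 neutrophil chemokines and growth factors tested fell, with a median of −1.60 (−2.36, −1.09 and −1.51 in tumours 1 to 3). Cxcl2 stood at 3.81, 6.72 and 3.04 CPM in GFP and 34.3, 21.9 and 10.7 CPM in mCherry libraries (log2 fold change −2.23, SE 0.253, adjusted p = 3.38e-04), with no overlap. Csf3, the granulocyte growth factor, stood at 9.09, 13.9 and 5.84 against 64.5, 42.5 and 23.2 CPM (log2 fold change −2.14, SE 0.195, adjusted p = 1.23e-04), and Cxcl1 at 32.9, 72.1 and 20.9 against 169.8, 136 and 59.5 CPM (−1.60). The mCherry libraries were ordered tumour 1, 2, 3 from high to low for all of these. Of 12 T cell and monocyte chemokines 6 fell and 1 rose. Ccl2, which draws monocytes, stood at 8.21, 24.4 and 10.2 against 77.2, 52.1 and 35.9 CPM (log2 fold change −2.003, SE 0.301, adjusted p = 0.00156). Of the ligands of CXCR3, a chemokine receptor of T cells, Cxcl9 fell by 1.36 and Cxcl10 by 0.67. Cxcl11 was at 1.13 and did not pass the test (adjusted p = 0.117). Cx3cl1 rose (0.47). Among cytokines, Il11 (−1.03), Lif (−1.06) and Il1b (−1.21) fell, and Il15 (1.33), Il34 (0.87) and Clcf1 (0.42) rose. Of 18 NF-kB subunits, inhibitors and targets 4 fell and none rose, beside 10.6% lower and 8.94% higher over all genes tested. Nfkbia, an inhibitor that NF-kB induces, fell by 0.60.

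Several markers of macrophages and endothelium were lower, as the chemokines were. Among other host lists 1 of 4 leukocyte, 1 of 5 pericyte, 1 of 8 adipocyte and 0 of 7 muscle markers were called. Those calls were all lower. Of 12 macrophage and monocyte markers tested 7 fell (median −0.82), among them C1qb (0.781, 0.7803 and 0.534 against 3.67, 2.61 and 1.52 CPM) and Cd163 (3.13, 5.29 and 3.66 against 12.6, 12.2 and 7.99 CPM). Cd14, which made up most of the summed level of this list in every library of both colours, fell by 0.80. Of 15 endothelial markers 6 fell and none rose (median −1.07), with sums of 25.9 to 35.6 CPM in GFP and 40.5 to 77.2 CPM in mCherry libraries. Without tumour 1, 1 endothelial marker was called, and with a filter of at least 50 counts 3 macrophage and 1 endothelial marker. S100a8, abundant in neutrophils, fell by 1.97 on the log2 scale. S100a9 was called lower too (7.21, 0.686 and 0.0918 CPM in mCherry and 1.86, 0.26 and 0.123 CPM in GFP libraries), but it was not lower in tumour 3, and its call ended with DESeq2, without the block and in the joint fit. The 8 neutrophil markers summed to 4.25, 1.43 and 1.27 CPM in GFP libraries 1 to 3 and to 18.1, 4.16 and 2.57 CPM in mCherry libraries, the tumour order of the chemokines in mCherry but not in GFP libraries. The part of these cells in the falls of chemokine genes was not tested. In bulk RNA, fewer cells of a type and less RNA per cell cannot be told apart. Fibroblast markers did not move as a group: of 8 tested Dcn rose (683, 761 and 749.6 against 266, 346 and 313 CPM) and Lum, Pi16 and Gsn fell. The sum of 8 secretory mammary markers was higher in GFP libraries through 1 gene, the kappa-casein gene Csn3 (68.8, 31.7 and 73.8 against 15.9, 13.4 and 18.7 CPM, adjusted p = 8.39e-05), while Csn1s1 and Lalba had no count in any of the 6.

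**Figure D3:**
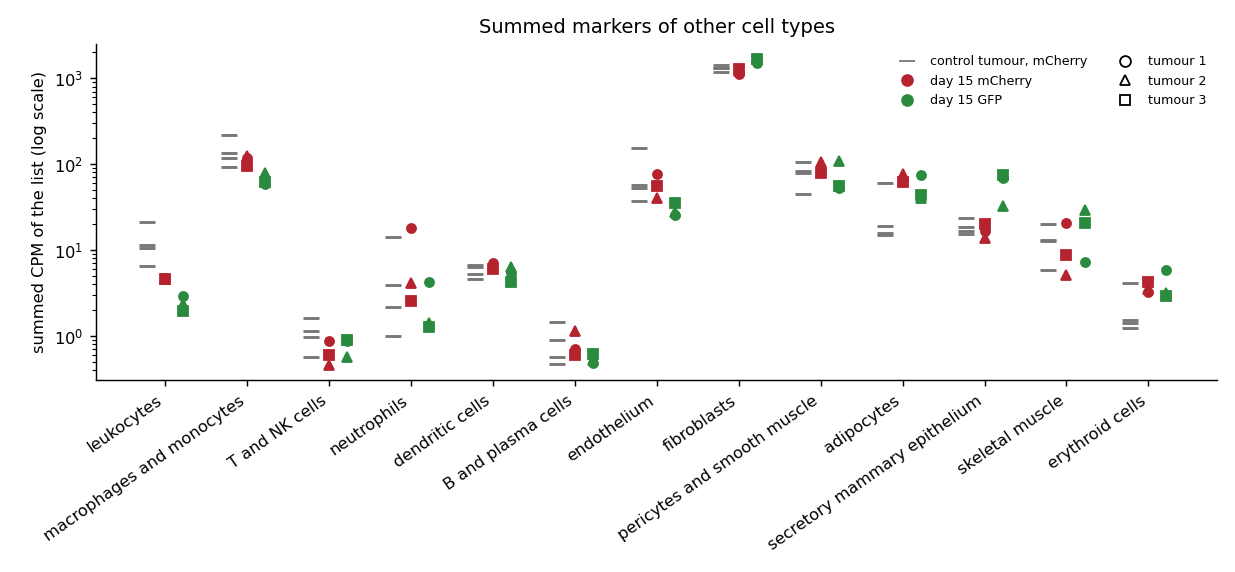
Summed CPM, on a log axis, of the markers of 13 other cell types, with mCherry cells in red, GFP cells in green, 1 marker shape per tumour, and grey dashes for the 4 control tumours. Macrophage and endothelial sums are lower in each GFP library than in every mCherry library, and T and NK cell sums stay under 2 CPM. In both colours the macrophage sum is mostly Cd14.

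Cell division genes were lower in every tumour. All 35 G2/M and mitosis genes fell, with a median of −1.03 and per-tumour medians of −1.17, −0.74 and −1.13. Mki67, the gene of the proliferation antigen Ki-67 (chr7:135689784-135716361, − strand, GRCm38), stood at 130.4, 167 and 202 CPM in GFP and 401, 296 and 463 CPM in mCherry libraries. All GFP libraries lay below all mCherry libraries and below the controls (275 to 311 CPM), a fall of 1.22 on the log2 scale (SE 0.1297, adjusted p = 2.28e-04). The kinetochore gene Ndc80 (−1.34), the mitotic kinase Plk1 (−1.34) and the kinesin Kif20a (−1.29) fell most, and Anln, of the cleavage furrow, least (−0.45). The summed level of the list was 1469 to 2025 CPM in GFP, 2710 to 4360 CPM in mCherry and 2469 to 2848 CPM in control libraries.

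Among 38 genes of S phase and DNA replication, 34 fell and none rose (median −0.85). The 6 subunits of the MCM helicase all fell, from −1.08 for Mcm3 to −0.62 for Mcm7, and Mcm4 stood at 43.9, 51.98 and 60.7 against 113, 97.6 and 102 CPM. The origin licensing gene Cdc6 (−1.23) and the ribonucleotide reductase gene Rrm2 (−0.998) fell too, while Pcna fell by 0.30 only. The genes of the activating factors E2f1 (−0.25, adjusted p = 0.0983) and E2f2 (−0.46, adjusted p = 0.1098) did not pass the test. Of 20 DNA repair and checkpoint genes 14 fell, led by Fanci (−1.07) and Exo1 (−1.05), and the damage kinase genes Atm (−0.059, adjusted p = 0.761) and Atr (−0.23, adjusted p = 0.0989) did not pass. Of the 35 mitosis genes 29 had a promoter sequence; 22 of these (75.9%) held the CHR letters and 22 held CCAAT, beside 11.8% and 38.9% of the genes tested. Of the 38 replication genes 31 had one, and 14 (45.2%) held the E2F letters, beside 8.6% of the genes tested. With only the 200 bases before the start, 31.0% of mitosis promoters held the CHR letters. These shares describe lists chosen by gene function and were not set against the difference between GFP and mCherry cells. Under 80% of the called genes, of the GTPases and of the sterol genes had a promoter sequence, so a share for those is void and is not given.

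Genes of the G1 phase showed no common direction, with 4 higher and 2 lower of 15. Ccnd2, a D-type cyclin, rose from 26.98, 38.2 and 31.2 CPM to 67.6, 59.04 and 65.01 CPM (log2 fold change 0.995, SE 0.125, adjusted p = 5.97e-04). Cdkn1a, the p53-induced CDK inhibitor p21, rose (29.7, 28.5 and 28.5 against 17.2, 22.7 and 14.8 CPM, adjusted p = 0.00588), as did Rbl2, the pocket protein p130 of the DREAM complex (0.55), and Ccnd3 (0.35). Rbl1 and Cdkn2c fell by 0.42 and 0.45. Cdkn1b, the CDK inhibitor p27, stood at 264, 208 and 212 against 189, 187 and 211 CPM and did not pass the test (log2 fold change 0.21, SE 0.0993, adjusted p = 0.176). Of 13 dormancy and quiescence genes 3 rose, Thbs1 (0.97), Klf2 (0.76) and Nr2f1 (0.57), and Foxo1 fell by 0.63. Over all genes tested 8.94% were called higher and 10.6% lower. Nr2f1, a nuclear receptor gene linked to tumour dormancy, stood at 378, 399 and 415 CPM in GFP and 256, 267 and 278 CPM in mCherry libraries, with no overlap. Among p53 and its targets, 15 genes tested, 4 rose, and Trp53 itself was at −0.0082 (adjusted p = 0.964).

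**Figure D4:**
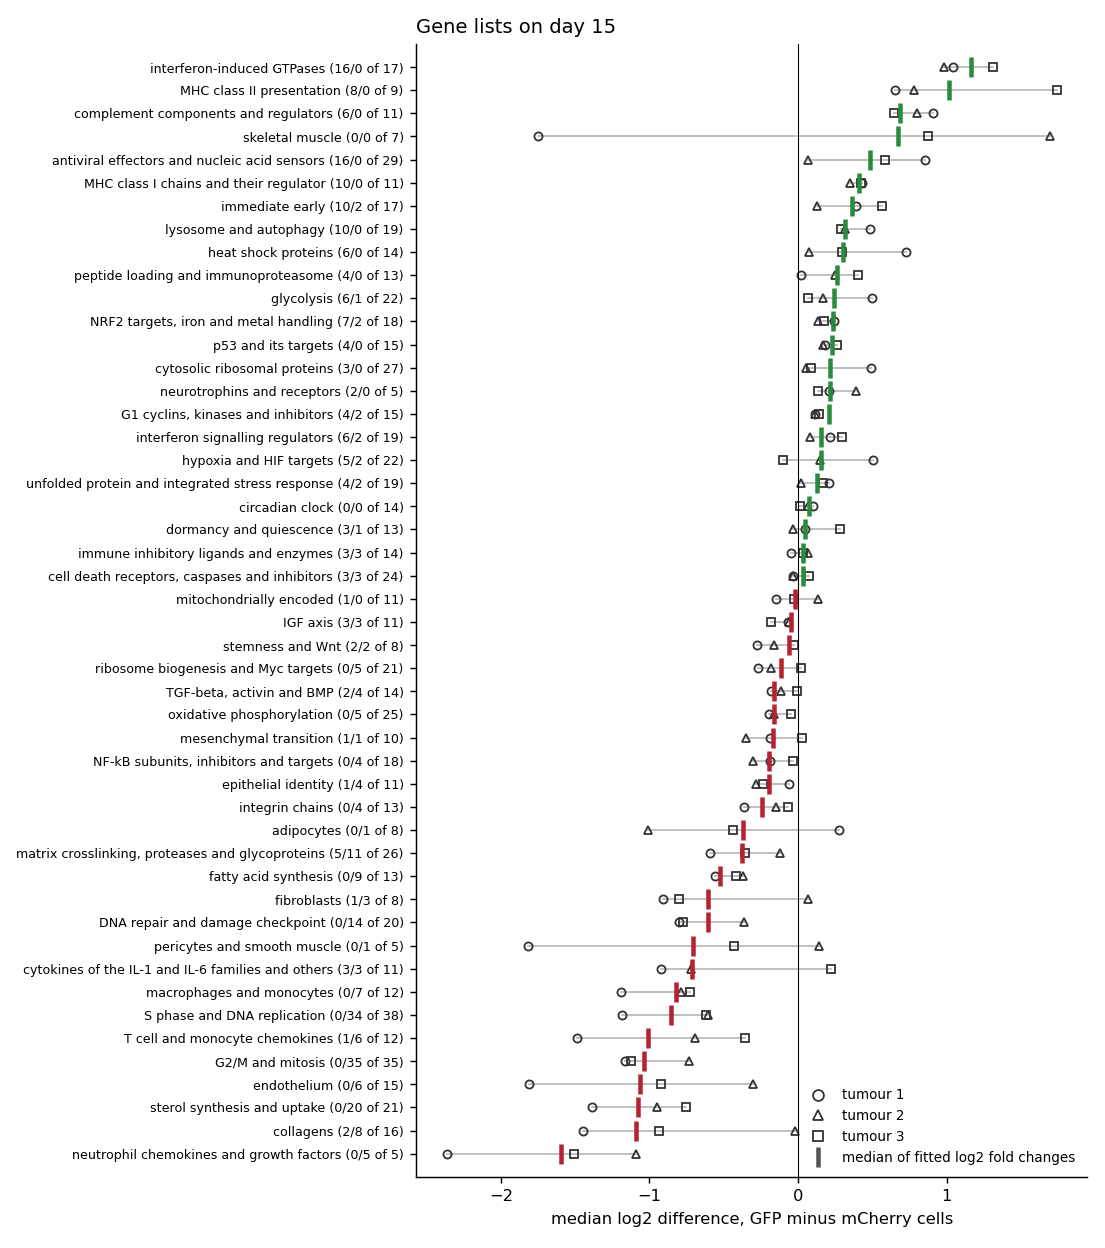
Median log2 difference of GFP minus mCherry cells for each gene list with at least 5 members tested, by tumour (open symbols) and over the fitted log2 fold changes (coloured bars). The numbers beside each name are members called higher and lower of those tested. Interferon-induced GTPases lie highest, at 1.17, and neutrophil chemokines lowest, at −1.60, and tumours differ most for skeletal muscle markers, of which none was called.

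Sterol synthesis genes were lower in every tumour. Of 21 sterol synthesis and uptake genes 20 fell and none rose (median −1.08, and −1.39, −0.95 and −0.75 in tumours 1 to 3). Sqle, squalene epoxidase (chr15:59315077-59331192, + strand, GRCm38), stood at 82.6, 96.4 and 77.01 CPM in GFP and 259, 214 and 178 CPM in mCherry libraries. The colours did not overlap, and Sqle was 2.53-fold lower (log2 fold change −1.34, SE 0.104, adjusted p = 5.08e-05). The sterol carrier gene Stard4 (−1.45), the demethylase gene Cyp51 (−1.49) and the regulator gene Srebf2 (−1.08) fell, and Lss was not called (−0.30, adjusted p = 0.0784). The summed level was 714 to 824 CPM in GFP, 1468 to 1894 CPM in mCherry and 743 to 1369 CPM in control libraries, so that the day 15 mCherry cells lay above the controls and the GFP cells near their lowest. Of 13 fatty acid synthesis genes 9 fell, led by the desaturase Fads2 (−1.73) and the elongase Elovl6 (−1.31).

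Other metabolic lists moved little. Of 25 oxidative phosphorylation genes 5 fell and none rose (median −0.16), and 1 was called without tumour 3 or with each chromosome centred. Of 22 glycolysis genes 6 rose, among them Eno2 (0.59) and Hk1 (0.41), and the lactate transporter gene Slc16a1 fell by 0.45. Hypoxia genes divided, with 5 higher and 2 lower of 22 and per-tumour medians of 0.50, 0.15 and −0.10. Car9, a carbonic anhydrase that hypoxia induces, stood at 146, 151 and 149 CPM in GFP and 68.4, 72.4 and 87.2 CPM in mCherry libraries, with no overlap (log2 fold change 0.96, SE 0.0911, adjusted p = 1.42e-04). Hif1a (−0.18, adjusted p = 0.152), Vegfa (0.27, adjusted p = 0.0869) and Slc2a1 (−0.031, adjusted p = 0.917) did not pass the test, and Ddit4 fell by 0.68.

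Stress and degradation genes rose in part. Of 18 NRF2 target and iron genes 7 rose and 2 fell. Hmox1, which breaks down heme, stood at 142, 129.8 and 65.01 CPM in GFP and 19.8, 41.1 and 22.04 CPM in mCherry libraries, 4.02-fold higher (adjusted p = 2.11e-04) and without overlap. The ferritin chains Fth1 (0.64) and Ftl1 (0.68), which store iron, and the glutathione synthesis genes Gclm (1.08) and Gclc (0.46) rose. The transferrin receptor gene Tfrc, for iron uptake, and Nfe2l2, the gene of NRF2 itself, fell by 0.33 and 0.35. Of 14 heat shock genes 6 rose, 5 of them small heat shock proteins, among them Hspb7 (2.07) and Cryab (1.004). Of 19 lysosome and autophagy genes 10 rose and none fell, among them Psap (0.49) and the cathepsin gene Ctsd (0.43), and 6 were called without tumour 3. Of 19 unfolded protein and stress response genes 4 rose and 2 fell, beside 8.94% higher and 10.6% lower over all genes tested. Ddit3 (0.75) led the rises, and the chaperone gene Hspa5 was at 0.037 (adjusted p = 0.837). None of 14 circadian clock genes was called with edgeR (4 had an unadjusted p under 0.05), and 1 was with DESeq2.

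Immediate early genes, which answer a stimulus within a short time, were higher for 10 and lower for 2 of 17 (median 0.36). Fosb stood at 3577, 3829.8 and 3138 CPM in GFP and 2637, 3492 and 2158 CPM in mCherry libraries, and its call ended without tumour 3. Without tumour 3, 3 of the 17 were called, and without the block 4. Of 27 cytosolic ribosomal protein genes 3 rose, with medians of 0.49 in tumour 1 and 0.055 and 0.085 in tumours 2 and 3.

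Several matrix and adhesion genes fell over 4-fold. Of 16 collagen genes 8 fell and 2 rose (median −1.09), but tumour 2 stood apart with a median of −0.022 against −1.45 and −0.93. Medians of host stromal markers in tumours 1 to 3 were −0.91, 0.069 and −0.801 for fibroblast, −1.82, 0.14 and −0.43 for pericyte and −1.81, −0.31 and −0.92 for endothelial markers. The summed fibroblast level was higher in GFP (1502 to 1665 CPM) than in mCherry libraries (1130 to 1289 CPM), and 1 of 5 pericyte markers was called. The part of host cells in the collagen falls was not tested. Col1a1 stood at 21.4, 29.6 and 11.5 CPM in GFP and 150.1, 52.2 and 175 CPM in mCherry libraries (log2 fold change −2.52, SE 0.443, adjusted p = 0.00371). Col7a1, the anchoring fibril collagen, was lower in every tumour (246, 159 and 212 against 512, 358 and 561 CPM, −1.22). Ibsp, the gene of bone sialoprotein, stood at 4.88, 0.7803 and 2.34 CPM in GFP and 54.6, 27.5 and 47.99 CPM in mCherry libraries, 17.8-fold lower (adjusted p = 1.05e-05). The crosslinking enzymes Lox (−1.74) and Loxl2 (−2.05) and the proteases Mmp3 (−1.07), Mmp9 (−1.47) and Mmp13 (−1.21) fell. In contrast Ogn, the small proteoglycan osteoglycin, stood at 32.6, 67.3 and 33.9 against 6.24, 12.3 and 7.62 CPM (log2 fold change 2.32, SE 0.113, adjusted p = 5.77e-06), and the protease inhibitor Timp3 rose (0.75). Of 13 integrin chains 4 fell: Itga2, the collagen receptor chain (1.42, 1.39 and 2.42 against 10.3, 9.56 and 16.3 CPM, −2.80), Itgb3 (−1.60), Itga6 (−0.59) and Itgav (−0.47).

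Of 11 epithelial genes 4 fell and 1 rose (median −0.20), and of 10 mesenchymal genes 1 rose and 1 fell. Over all genes tested 8.94% were called higher and 10.6% lower. The epithelial list summed to 734 to 807 CPM in GFP, 902 to 1283 CPM in mCherry and 955 to 1605 CPM in control libraries. Krt18 (112, 85.3 and 113 against 263, 192 and 161 CPM, −0.98), Jup (−0.64) and Krt8 (−0.55) fell. The listed epithelial gene that rose was Cdh1, which encodes E-cadherin (28.4, 37.7 and 37.4 against 12.3, 14.1 and 13.5 CPM, log2 fold change 1.36, SE 0.109, adjusted p = 5.92e-05). Vim did not pass the test (0.046, adjusted p = 0.803). Among growth factor signals, Inhba, the activin A subunit, fell (92.7, 59.5 and 74.1 against 221, 173 and 185 CPM, −1.38), as did Tgfb1 (−0.79) and Bmp1 (−0.81), and Id2, a BMP-induced inhibitor of bHLH factors, rose (14.2, 10.8 and 12.99 against 3.45, 3.89 and 4.73 CPM, 1.65).

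Several large rises were in genes outside these groups. Angptl7, an angiopoietin-like factor, stood at 463, 698 and 312 CPM in GFP and 64.2, 118 and 69.8 CPM in mCherry libraries, 5.73-fold higher (log2 fold change 2.52, SE 0.126, adjusted p = 5.77e-06) and above the control range of 34.1 to 132 CPM. Ngfr, the p75 neurotrophin receptor gene (chr11:95568818-95587735, − strand, GRCm38), stood at 57.5, 48.8 and 70.5 against 6.81, 10.97 and 13.5 CPM (log2 fold change 2.51, SE 0.158, adjusted p = 1.97e-05), with controls at 7.898 to 24.9 CPM. Bdnf, the gene of a neurotrophin, did not pass (−0.14, adjusted p = 0.338). Aldh1a1, a retinaldehyde dehydrogenase, stood at 7.08, 8.15 and 7.93 against 0.8403, 1.46 and 1.15 CPM. Igf2, a fetal growth factor, stood at 163, 435 and 87.5 CPM in GFP and 39.9, 108 and 26.7 CPM in mCherry libraries. Tumour 2 was highest in both colours and the colours overlapped, yet the within-tumour change was even (log2 fold change 1.92, SE 0.0929, adjusted p = 5.77e-06), and it was no longer called once the tumour block was dropped (adjusted p = 0.0674). Its imprinted neighbour H19 stood at 9.52, 2.38 and 37.4 against 1.64, 1.14 and 2.204 CPM, so that tumour 3 dominated its GFP mean. Igfbp3, which binds IGFs, fell by 2.22.

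The largest fall was in Acsbg1, a very-long-chain acyl-CoA synthetase gene (chr9:54604877-54661870, − strand, GRCm38). It stood at 0.684, 0.5202 and 0.945 CPM in GFP and 20.1, 9.100 and 16.3 CPM in mCherry libraries, 20.6-fold lower (adjusted p = 5.77e-06), and the controls spanned 2.22 to 12.5 CPM. Stc1, the hormone stanniocalcin (3.22, 14.3 and 4.52 against 53.7, 36.4 and 35.5 CPM), the cytoskeletal linker gene Evpl (18.5, 13.7 and 19.8 against 108, 74.5 and 71.8 CPM), the Rac exchange factor gene Tiam1 (6.203, 7.11 and 7.97 against 47.5, 26.8 and 29.8 CPM) and the keratin gene Krt76 (9.82, 7.803 and 8.301 against 81.6, 46.9 and 29.6 CPM) fell over 4-fold, without overlap. Cd33, a sialic acid receptor gene known from myeloid cells, fell as well (2.296, 1.13 and 1.03 against 13.2, 6.91 and 8.31 CPM).

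The GFP effect on day 15 was set against that on day 7 in 1 fit of the 12 libraries of mixed tumours, in which day and sequencing run coincide and cannot be told apart. Of 16626 genes tested 1 differed between the days (0.00601%), Inmt, an indole N-methyltransferase gene, and 1402 had an unadjusted p under 0.05. Inmt stood at 47.4, 68.8 and 75.1 CPM in GFP and 10.3, 21.4 and 24.3 CPM in mCherry libraries on day 15 (1.81), and at means of 54.7 and 49.3 CPM on day 7. Its difference between days was 1.67 (adjusted p = 0.0111). DESeq2 called 102 genes in the same contrast, and edgeR 71 without column 4 of day 7 and none without any 1 of the day 15 tumours. On simulated counts with the same design but no tumour effects, and 99 genes changed at each size, 45.5% of 2-fold and 78.8% of 4-fold differences between days were recovered. Differences of these sizes, and smaller ones, could therefore go unseen.

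The authors' deposited table for day 15 lists 14242 rows, of which 2350 had an adjusted p under 0.05, 1080 with a higher and 1270 with a lower level in GFP cells. Of 2690 genes called here that the authors' deposited table lists by a unique symbol, 2240 (83.3%) were called in it, and these make up 98.3% of its 2280 matched calls, with no sign reversed. Both rest on the same libraries.

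Differences also followed the chromosome a gene lies on. Over the genes tested, the median log2 difference was 0.16 on chromosomes 10 and 8 and 0.14 on chromosome 3, and −0.12 on chromosome 2, −0.11 on chromosome 9 and −0.11 on chromosome 16, beside 0.0060 over all genes with a listed chromosome. On chromosome 10, 20.5% of 659 genes were called higher and 6.37% lower, and on chromosome 2, 4.74% of 1120 were called higher and 20.4% lower. The sign was the same in all 3 tumours on 14 of 20 chromosomes. Medians over genes that were not called had the same sign on those 6 chromosomes, 0.12 on chromosome 10 and −0.057 on chromosome 2. Day 7 medians of the same contrast were 0.11 on chromosome 10, 0.22 on chromosome 8 and −0.12 on chromosome 2, and over the 20 chromosomes the medians of the 2 days had a Pearson r of 0.892 and a Spearman rho of 0.856. This is a description of 20 points; the days share the cell line and the 2 reporters, and the sources used here do not say whether they share the transduced populations. Day 15 mCherry cells against the controls had medians of −0.056 to 0.14, of which 1 exceeded 0.1 in size (chromosome 18). Chromosome 18 in tumour 3 stood apart, at −0.25 against 0.063 and 0.0052 in tumours 1 and 2. With each chromosome centred in each library, an alternative chosen after seeing the data, 2535 genes were called, 2236 of them among the 2782, and 568 of the 592 calls over 2-fold were kept. All 35 mitosis genes, 33 of the 38 replication genes, 21 of the 21 sterol genes and 16 of the 17 GTPases were then called in the same directions.

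**Figure D5:**
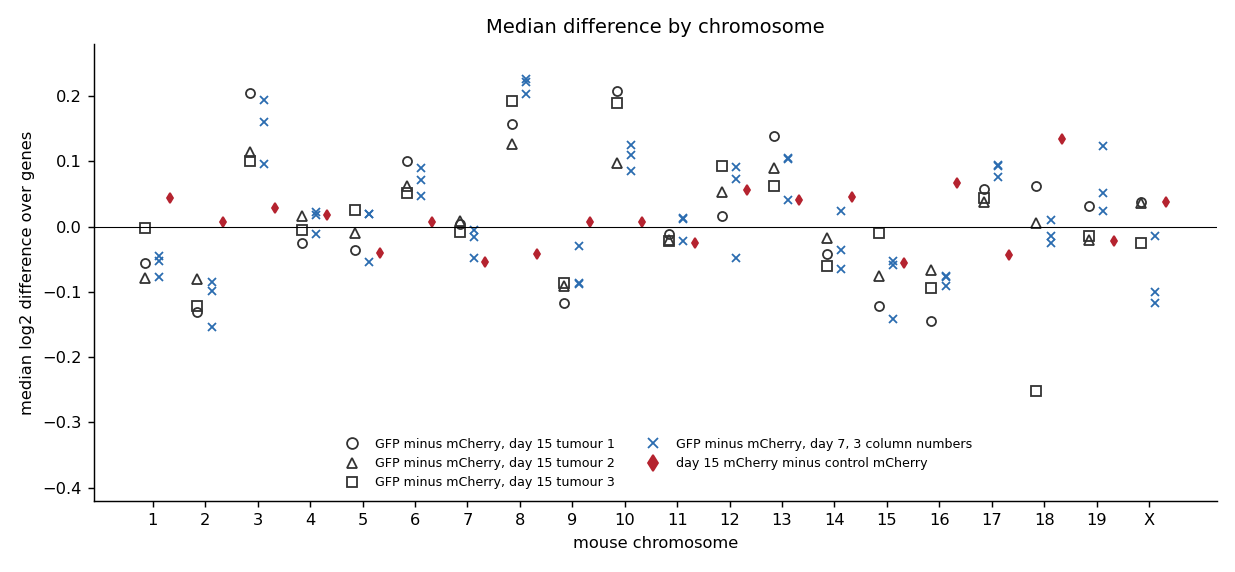
Median log2 difference over the genes of each mouse chromosome, for GFP minus mCherry cells in each day 15 tumour (open black symbols) and for the 3 column numbers of day 7 (blue crosses), and for day 15 mCherry minus control mCherry cells (red diamonds). Chromosomes 3, 8 and 10 lie above 0 and chromosomes 2, 9 and 16 below 0 in all 3 day 15 tumours, and on chromosome 18 tumour 3 lies at −0.25.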

How the data were processed

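The authors deposited raw counts per gene, made by a sequencing company, per the labels' protocols. The submitters' processing notes name the build mm10. The sources used here do not give the aligner, counter, annotation, strandedness or CD45 gate. The authors' deposited table holds log2 fold changes, p-values, a Wald score and baseMean, a signal per gene that averages normalized counts, per the file headers, from DESeq2, per the submitters' processing notes. Of 49315 genes, 176 without a symbol (at most 0.00996% of a library's counts) were left out. In 26 rows the symbol had become a date.

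Genes passing filterByExpr (minimum count 10, minimum total 15) were normalized by TMM and tested with edgeR 4.0.16 in R 4.3.3, with a term for each tumour (2 residual degrees of freedom). P-values were adjusted by Benjamini and Hochberg. Tumour is a block because each pair shares 1 tumour in the labels. Residual correlations within pairs were 0.0899, 0.161 and 0.231, against −0.182 to 0.0188 between other pairs. SE was taken as log2 fold change divided by the root of F, and per-tumour differences use a prior count of 2. The day contrast blocked day 15 tumours only, since the day 7 columns carry other numbers than the labels. Control columns were matched as a group. Replicates differed beyond counting error. On simulated counts for this comparison (14040 genes), 65, 64 and 64 genes were changed 1.5-fold, 2-fold and 4-fold. Of these 64.6%, 92.2% and 98.4% were recovered, and 8.38% of calls were false. Far fewer genes were changed there than the 19.5% called in the data, so these rates need not hold for the calls.

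Gene coordinates are from GENCODE M21 (GRCm38). Promoters are from RefSeq (GRCm38.p6), matched by symbol for 10027 of 14240 symbols tested (70.4%), and 10 motifs were searched on both strands. Lists (39 for pathways, 13 for cell types and 3 for RNA quality) were described by counts and medians, without a set test. The comparison and the lists were chosen with earlier results of these data known. Named genes are the 15 largest rises and falls among genes called with 1 sign in all tumours and a mean log2 CPM from 1 up, the 10 of highest CPM in each direction, the 3 members of smallest p of each list, those called between days, and 16 set by name; not all are printed, some are not reported here, and others, mostly list members, were named after their values were seen. Alternatives were no block, DESeq2 1.42.0, edgeR with DESeq2's size factors, filters of 50 counts or none, each tumour left out, a joint fit with the controls, a promoter window of 200 bases, and centring of chromosomes.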

Additional observations from a re-analysis of the deposited data

Results flagged for a closer look

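Inmt was the 1 gene whose GFP effect differed between injection days by the test of the difference itself: the log2 fold change on day 15 exceeded that on day 7 by 1.67 (adjusted p = 0.0111, edgeR quasi-likelihood test). It was higher in GFP cells of 3 of 3 tumours on day 15, at 47.4, 68.8 and 75.1 CPM against 10.3, 21.4 and 24.3 CPM. The call was not kept when any 1 of the 3 day 15 tumours was left out. Injection day and sequencing run cannot be told apart.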

How the results depend on the processing

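None of the 172 called genes that the naming rule chose changed direction under any alternative run, but 5 list medians and those of chromosomes 7 and 19, all near 0 or mixed, changed sign: immune inhibitory genes to −0.098 without tumour 2, cytokines to 0.056 and mesenchymal genes to 0.053 with a filter of 50 counts, epithelial genes to 0.0024 without a filter, and dormancy genes to −0.033 with centred chromosomes. The 2782 calls became 2354 with DESeq2, 2839 with its size factors, 3475 without a filter, 2603 with a filter of 50 counts, 2535 with centred chromosomes, 2059 with no replicate block (no pairing by tumour) and 1873 in the joint fit with the controls, which called 800 genes higher and 211 list members in all in place of 376. Leaving out a tumour gave 1736 to 2546 calls, 764 to 1181 higher and 972 to 1365 lower. Of 172 named genes called, 98 were called under every alternative run for them. Counts without the replicate block stand in the report for the interferon and MHC lists.

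Between days the 1 call (1 up, 0 down) became 102 with DESeq2 (54 up, 48 down), 253 without a filter (132 up, 121 down), 2 with no replicate block (2 up), and 35 with a replicate block in both days by column number (17 up, 18 down). Leaving out a library pair gave 0 to 71 calls, 0 to 22 up and 0 to 49 down. The cause was not tested. With only the 200 bases before the start, 31.0% of mitosis promoters held the CHR letters in place of 75.9%. Over the genes tested the CHR share went from 11.8% to 7.51%. This window leaves out the 50 bases after the start and those farthest before it, and where the lost matches lie was not counted. CCAAT in mitosis promoters stayed at 75.9%, and the E2F letters in replication promoters were at 29.0%. Shares over lists with under 80% of promoters are void and are not given.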

Other observations

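The called genes of highest CPM in GFP cells included mt-Co1 (7430.0, 6791 and 6353 against 5502, 5095 and 5258 CPM), Eef2, the translocase of translation (3467, 2824 and 3081 against 2132, 2431 and 2445 CPM), Tpt1 (3389, 2602 and 2850.1 against 1818, 2121 and 2272 CPM) and the copper oxidase gene Cp (2366, 2256 and 2476 against 1463, 1372 and 1884 CPM). The calls of mt-Co1, Eef2 and Tpt1 ended without tumour 3, while that of Cp held under every alternative run. Among the lower genes of highest CPM, Slco2a1, a prostaglandin transporter gene, stood at 589.6, 466 and 747 against 1269.8, 1005 and 1165 CPM and Serpine2, a protease inhibitor gene, at 799, 807 and 728 against 1112, 1247 and 1141 CPM.

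The prostaglandin genes named here moved apart: Ptgs2 rose (0.80) and the uptake gene Slco2a1 fell by 0.96. Both genes were picked after their values were seen.

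The authors' deposited table holds a row with no gene name and a baseMean of 22515851, the size of a whole library here, while its next largest baseMean is 472328. That row has a log2 fold change of 0.028 and an adjusted p of 0.889.

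Cell death genes did not move as a group. Of 24, Tnfsf10, the TRAIL ligand gene (0.75), Mlkl, the effector of necroptosis (0.51), and Bcl2l1 (0.38) rose. The genes that fell included Tnfrsf10b, the TRAIL receptor gene (−0.59), and Birc3 (−0.46). Serpinb9, which blocks granzyme B, did not pass the test (0.11, adjusted p = 0.485), and neither did Fas (−0.26, adjusted p = 0.155). Tnfsf10 stood at 13.2, 16.04 and 37.1 CPM in GFP and 8.31, 12.3 and 16.3 CPM in mCherry libraries, with tumour 3 highest in both colours, and its call ended without tumour 3 (adjusted p = 0.0863).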
